A study of Homo sapiens with 6 samples.

Results

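Glycolysis, gluconeogenesis and hexose transport were followed through 36 genes, chosen by name, among the 58735 genes of an expression table from Hep-G2 cells. Hep-G2 is an established human liver cancer line whose labels call the cells hepatocytes. All cells carried a lentiviral short hairpin RNA and had been selected with puromycin. The sh-NC libraries (n = 3) came from wild type cells with a control hairpin, and the sh-CLGN libraries (n = 3) from cells in which CLGN, the gene of the endoplasmic reticulum chaperone calmegin, was knocked down. Each group held 1 hairpin, so the effect of losing CLGN cannot be told apart from that of the hairpin or of the selected population, and 1 batch label was given to all 6 libraries. Nothing in the labels says that the libraries of a group came from separate cultures, so p-values measure the spread between these libraries only.

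Glycolysis splits glucose into pyruvate, which cells can reduce to lactate and export. Gluconeogenesis, a hallmark of the liver, runs most of the same steps in reverse and replaces the irreversible ones with enzymes of its own. Hexose carriers of the SLC2A family let sugar into and out of the cell, and tumour cells commonly run glycolysis fast even when oxygen is present.

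CLGN, the targeted gene, was measured at 24.1, 21.05 and 26.1 FPKM (fragments per kilobase of gene, adjusted for library size) in sh-NC against 9.48, 8.88 and 8.60 in sh-CLGN. The log2 fold change was -1.31 (SE 0.081, limma adjusted p = 8.35e-06). Libraries held 14955816 to 16244639 reads, and for a gene of 1 kb a single read stood for 0.0589 to 0.0717 FPKM. The library size behind the deposited FPKM was not the number of these reads. It was 0.933 to 0.953 times the reads in sh-NC and 1.07 to 1.08 times the reads in sh-CLGN. Against sh-NC, FPKM in sh-CLGN thus came out lower than with scaling by read totals. All 10 hepatocyte markers examined were expressed, with summed levels of 7868 to 8132 FPKM in sh-NC against 8105 to 8697 in sh-CLGN, though 5 were lower (TF by -1.62 and ALB by -0.90 in log2 fold change) and 4 were higher. Of 10 fibroblast markers, 5 were tested and higher in sh-CLGN, but 3 of them, COL1A1, COL3A1 and LUM, reached the filter only in sh-CLGN libraries and had to differ. COL1A2, above the filter in both groups, was at 4.20 ± 0.561 FPKM in sh-NC against 38.7 ± 0.614 in sh-CLGN (2.94, limma adjusted p = 4.15e-07). The summed level of the list, most of it COL1A2 in sh-CLGN, went from between 7.17 and 8.51 FPKM to between 48.5 and 49.9. FAP and POSTN were at 0 in every library. Endothelial markers summed to 3.45 to 3.75 FPKM in sh-NC against 2.42 to 2.80 in sh-CLGN, with KDR and ERG at 0, and the tested one, PECAM1, was lower (-0.28, limma adjusted p = 0.00778). Leukocyte markers summed to 70.0 to 77.8 FPKM in sh-NC against 61.4 to 68.6 in sh-CLGN, almost all of it LYZ. The part of these markers in the results below was not tested.

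Genes that reached 1 FPKM in 3 or more libraries were tested with limma on log2(FPKM + 1), a scale that understates the change of low genes. Of the 36 genes, 30 passed this filter. At an adjusted p of at most 0.05, 25 of the 30 changed, against 65.8% of all 13074 genes tested. In sh-CLGN, 21 were lower, against a background of 39%, and 4 were higher, against 26.7%, one of which, ENO2, reached the filter only in sh-CLGN libraries. The sh-CLGN libraries lay wholly below the sh-NC libraries in 22 of the 30 (background 41.5%), and the groups were apart in either direction in 26 (background 70.2%). A log2 fold change of at least 1 in size was reached together with the adjusted p by 3 genes, SLC2A4RG, GPI and GAPDH (background 6.28%). The median log2 fold change of the 30 was -0.43, beside -0.08 over all genes tested.

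The 36 genes took 1.33% ± 0.0354 of all reads in sh-NC against 0.924% ± 0.0124 in sh-CLGN (SD, n = 3). Their summed expression was 3232 ± 122 FPKM in sh-NC against 1895 ± 25.6 FPKM in sh-CLGN. GAPDH, ENO1 and TPI1 were the most expressed, and 6 genes stayed under the filter.

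**Figure D1:**
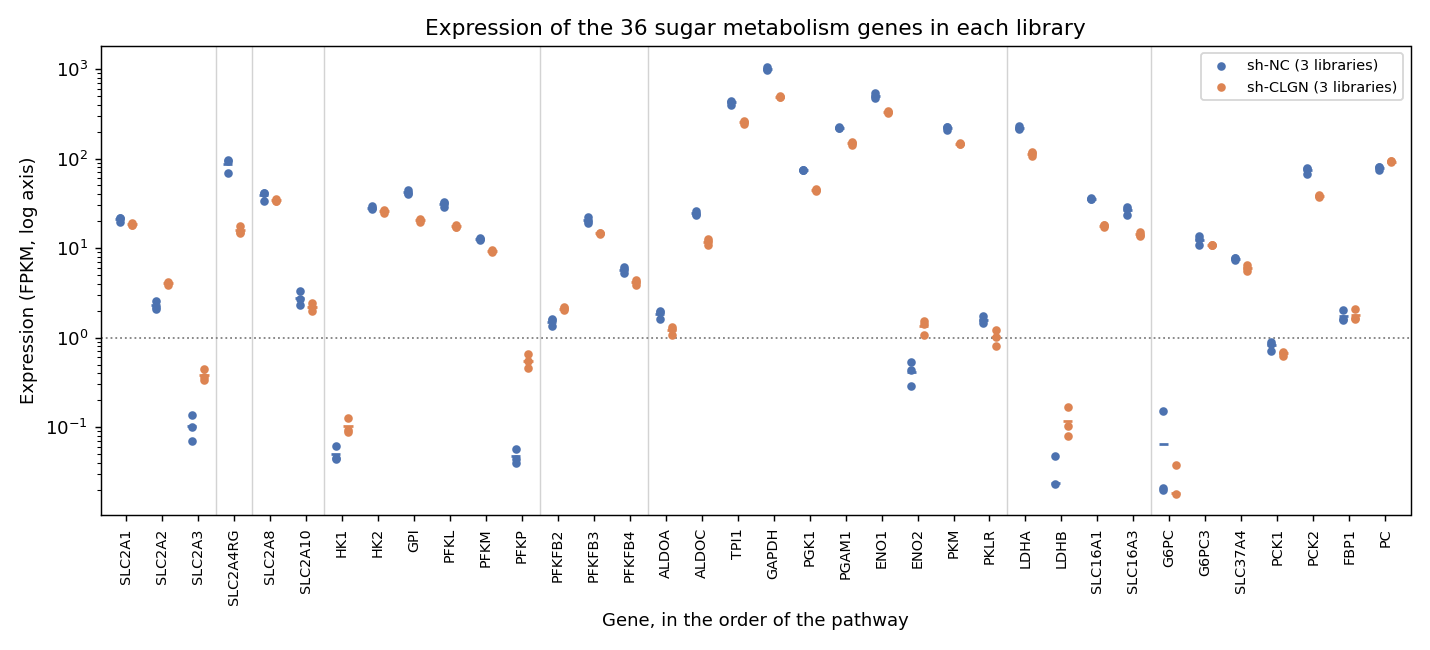
Expression in FPKM (log axis) of each of the 36 genes in the 3 sh-NC and 3 sh-CLGN libraries. Each point is 1 library, short lines are group means, and the dotted line marks 1 FPKM. GAPDH stood near 1007 FPKM in sh-NC against 490.1 in sh-CLGN, while SLC2A3, HK1, PFKP, LDHB, G6PC and PCK1 lay below the dotted line. Libraries at 0 cannot be drawn on this axis, which leaves out 1 sh-NC library of LDHB and 1 sh-CLGN library of G6PC.

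Promoter sequence was inspected because glycolytic genes are classical targets of hypoxia-inducible factor, whose core site reads ACGTG or GCGTG, and of MYC and its relatives, which bind the E-box CACGTG. RefSeq promoters on GRCh38.p14 were found for 28 of the 30 tested genes, and the 250 bases before each start were read on both strands. ACGTG or GCGTG was present in 18 of the 28, while 58.4% of 9073 promoters of tested genes and 43.2% of all 35116 promoters held one. CACGTG, which contains ACGTG on each strand, was present in 5 of the 28, namely those of PKLR, LDHA, GAPDH, ALDOC and G6PC3, and in 9.10% of the tested promoters. The windows below are shown for 3 genes that fell and 1 that rose, with the matched letters in capitals. Both directions of change are represented among promoters with such letters, and a match is a description of the sequence only.
LDHA, chr11:18394368-18394393, plus strand: actcccagcgCACGTGgagcagtctg
LDHA, chr11:18394471-18394499, plus strand: actcaCACGTGggttcccgCACGTccgcc
GAPDH, chr12:6535173-6535198, plus strand: tctgcggggtCACGTGtcgcagagga
PGK1, chrX:78104029-78104058, plus strand: ggttcgcgGCGTGccggACGTGacaaacgg
PC, chr11:66958553-66958577, minus strand: ggcggggctgACGTGgggcgccaag

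Hexose carriers did not move together. SLC2A2 (ENSG00000163581, chromosome 3, 170996348 to 171026750), the low-affinity carrier GLUT2 of liver and pancreatic beta cells, was 2.22, 2.11 and 2.59 FPKM in sh-NC against 4.12, 4.195 and 3.92 in sh-CLGN. The groups were apart, and its log2 fold change was 0.62 (SE 0.077, limma adjusted p = 0.000224). SLC2A1, the widely expressed carrier GLUT1, was the most abundant of the GLUT1 to GLUT3 carriers in both groups, at 21.4, 21.7 and 19.6 FPKM in sh-NC against 17.9, 18.2 and 19.2 in sh-CLGN. It passed narrowly as lower (-0.17, SE 0.057, adjusted p = 0.0286), a call lost with TPM, read totals, quantile normalization and GC correction, and with read totals the change was 0.02. Its reads numbered 1411, 1495 and 1431 in sh-NC against 1434, 1413 and 1462 in sh-CLGN. SLC2A8, an intracellular carrier, was at 38.7 ± 4.74 and 34.0 ± 0.980 FPKM and SLC2A10 at 2.77 ± 0.503 and 2.20 ± 0.212 FPKM in sh-NC and sh-CLGN. Neither passed the test (adjusted p = 0.105 and 0.0952), and their groups overlapped.

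SLC2A4RG (ENSG00000125520, chromosome 20, 63739861 to 63743505, plus strand) encodes a DNA-binding regulator of the gene for the insulin-responsive carrier GLUT4. Its level was 95.9, 93.4 and 68.1 FPKM in sh-NC against 14.7, 15.1 and 17.7 in sh-CLGN. Every sh-CLGN library lay far below every sh-NC library, and 18.4% of the control mean was left (log2 fold change -2.35, SE 0.132, limma adjusted p = 5.69e-06). The third sh-NC library was the lowest of its group, and without it the change was -2.51. SLC2A4, the gene of GLUT4 itself, was named after its value was seen. It was at 0.773 ± 0.125 FPKM in sh-NC against 1.42 ± 0.00529 in sh-CLGN (0.45, adjusted p = 0.00302), and it passed the filter only through its sh-CLGN libraries.

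The upper part of glycolysis, which spends ATP to make a split-ready hexose bisphosphate, was lower at 3 of its 4 tested genes. GPI (ENSG00000105220, chromosome 19, 34359480 to 34402413), which turns glucose 6-phosphate into fructose 6-phosphate, was 44.7, 41.7 and 39.7 FPKM in sh-NC against 20.8, 19.6 and 21.0 in sh-CLGN. The mean fell to 48.7% of control (-1.001, SE 0.058, limma adjusted p = 6.23e-06), and GPI sat so close to a change of 1 that without sh-NC library 1 it was -0.96 and without sh-CLGN library 2 -0.97. PFKL, the liver form of the committing enzyme phosphofructokinase, was 31.9, 33.0 and 28.7 FPKM in sh-NC against 17.2, 17.3 and 18.1 in sh-CLGN (-0.80, SE 0.061, adjusted p = 2.19e-05). PFKM, the muscle form, fell less, from 12.6 ± 0.292 to 9.30 ± 0.245 FPKM (-0.40, SE 0.050, adjusted p = 0.000231). Exons of PFKM share 8.58% of their bases with SENP1 on the opposite strand. HK2, the hexokinase form abundant in many tumours, was 27.5, 29.5 and 28.1 FPKM in sh-NC against 25.6, 24.7 and 26.9 in sh-CLGN. Its groups were apart but it did not pass (-0.13, SE 0.053, adjusted p = 0.0529), and its reads, at 2324, 2612 and 2634 in sh-NC against 2636, 2453 and 2636 in sh-CLGN, overlapped.

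The PFKFB enzymes make and break fructose 2,6-bisphosphate, a strong activator of phosphofructokinase. PFKFB3, whose kinase activity dominates, fell from 20.5 ± 1.57 to 14.6 ± 0.292 FPKM (-0.47, SE 0.062, limma adjusted p = 0.000322), and PFKFB4 fell from 5.74 ± 0.430 to 4.15 ± 0.230 FPKM (-0.39). PFKFB2 rose from 1.51 ± 0.143 to 2.11 ± 0.0880 FPKM (0.31, SE 0.080, adjusted p = 0.00940). Under quantile normalization PFKFB2 no longer passed (0.19, adjusted p = 0.0680).

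In the lower part, from aldolase to pyruvate kinase, 9 of 10 tested genes were lower and ENO2 was higher. GAPDH (ENSG00000111640, chromosome 12, 6533927 to 6538374), the dehydrogenase of the oxidative step, had 1046, 998.9 and 976.3 FPKM in sh-NC against 498.1, 490.04 and 482.2 in sh-CLGN. Its groups were separated by a wide gap (-1.04, SE 0.050, limma adjusted p = 3.16e-06). ENO1, the main enolase, was 534.8, 500.3 and 474.6 FPKM in sh-NC against 332.2, 321.4 and 336.9 in sh-CLGN (-0.61, adjusted p = 5.7e-05). TPI1, which interconverts the triose phosphates, was 439.4, 431.7 and 401.2 FPKM in sh-NC against 264.9, 255.2 and 241.2 in sh-CLGN (-0.74, adjusted p = 2.33e-05). All 3 genes held their order, GAPDH above ENO1 above TPI1, in every library.

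PGK1, the first ATP-yielding kinase of the pathway, was 74.7, 74.7 and 75.2 FPKM in sh-NC against 45.0, 45.2 and 43.7 in sh-CLGN (-0.73, SE 0.041, limma adjusted p = 5.79e-06). PGAM1, the mutase that follows it, fell from 220.5 ± 2.46 to 149 ± 5.25 FPKM (-0.56). PKM, the pyruvate kinase of most tissues and tumours, fell from 222 ± 10.1 to 147 ± 1.75 FPKM (-0.59), and PKLR, the liver and red cell form, from 1.59 ± 0.143 to 1.01 ± 0.206 FPKM (-0.37, adjusted p = 0.0148). PKLR lost its call when the first sh-CLGN library was left out (adjusted p = 0.0508), when libraries were scaled by read totals and after GC correction. Its exons share 17.6% of their bases with HCN3 on the opposite strand, and the strand setting of the counting was not given in the sources used here.

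ALDOC (ENSG00000109107, chromosome 17, 28573115 to 28577264), the aldolase named for brain, was 24.1, 23.4 and 25.6 FPKM in sh-NC against 12.8, 11.9 and 10.7 in sh-CLGN (-0.99, SE 0.070, limma adjusted p = 1.47e-05). ALDOA, the aldolase of muscle and of most cells, was listed at only 1.85 ± 0.204 and 1.21 ± 0.132 FPKM (-0.37, adjusted p = 0.00874), a call lost after GC correction (-0.12, adjusted p = 0.197). In the annotation whose positions the table carries, 93.8% of ALDOA coding bases also belong to exons of another gene entry on the same strand, AC093512.2, which had 46 reads in all. How reads on such shared bases were counted was not given, so the ALDOA level and its rank below ALDOC are uncertain. ENO2, the neuronal enolase, was 0.536, 0.432 and 0.287 FPKM in sh-NC against 1.515, 1.41 and 1.07 in sh-CLGN (0.72, SE 0.119, adjusted p = 0.00107). It passed the filter only through the sh-CLGN libraries, so a gene entering in this way had to differ.

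**Figure D2:**
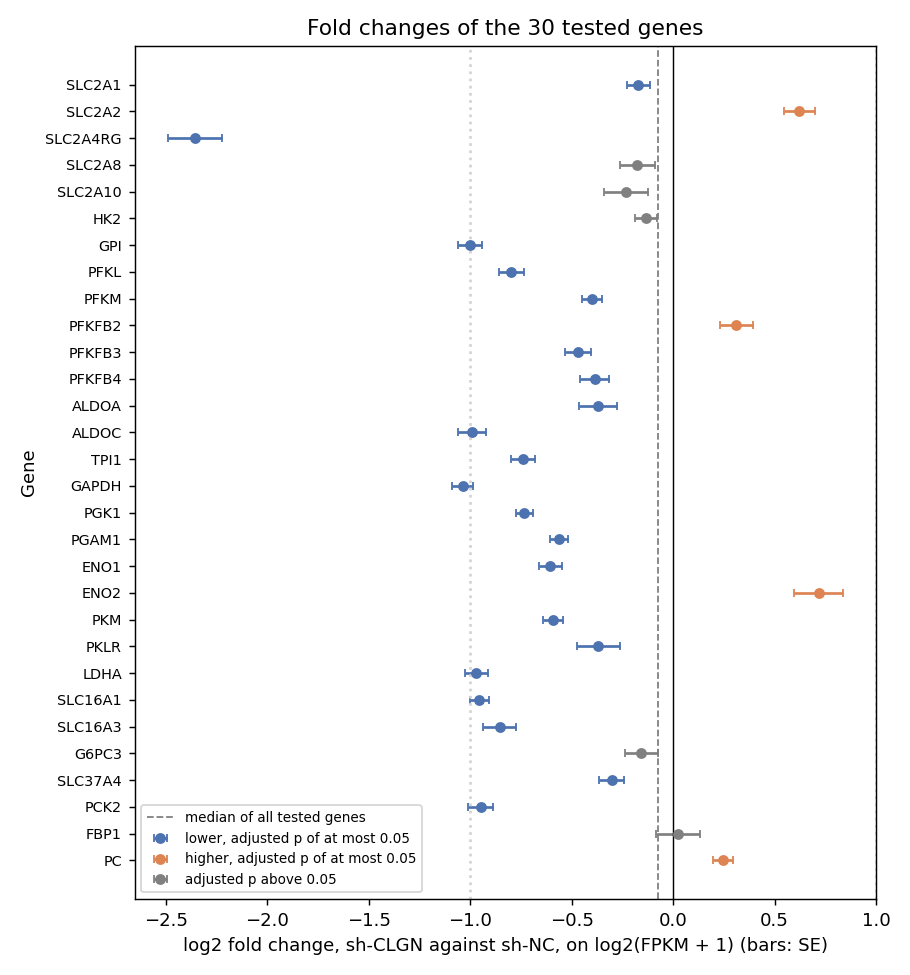
Log2 fold change of sh-CLGN against sh-NC on log2(FPKM + 1) for the 30 tested genes, in pathway order, with SE bars from limma (3 libraries per group). Blue marks genes lower and orange genes higher at an adjusted p of at most 0.05, grey those above it, dotted lines a change of 1 in size and the dashed line the median of all genes tested, -0.08. SLC2A4RG at -2.35 stands far to the left, and ENO2 and SLC2A2 lie farthest to the right.

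The lactate steps were lower throughout the tested genes. LDHA (ENSG00000134333, chromosome 11, 18394388 to 18408425), which reduces pyruvate to lactate, was 220.9, 215.3 and 230.2 FPKM in sh-NC against 117.5, 115 and 107 in sh-CLGN. Its mean fell to 50.9% of control (-0.97, SE 0.054, limma adjusted p = 5.7e-06). SLC16A1 (ENSG00000155380, chromosome 1, 112911847 to 112957013), the monocarboxylate carrier MCT1, was 35.0, 34.9 and 36.1 FPKM in sh-NC against 18.2, 17.9 and 17.1 in sh-CLGN (-0.95, SE 0.047, adjusted p = 3.33e-06). SLC16A3, the lactate exporter MCT4, was 29.1, 27.6 and 23.65 FPKM in sh-NC against 13.8, 14.02 and 15.2 in sh-CLGN (-0.85, SE 0.081, adjusted p = 5.68e-05). The groups were apart in these 3 genes. Exons of SLC16A3 share 6.04% of their bases with CSNK1D, a more abundantly read neighbour on the opposite strand.

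Gluconeogenesis was split. PCK2 (ENSG00000100889, chromosome 14, 24094053 to 24110598), the mitochondrial phosphoenolpyruvate carboxykinase, was 79.2, 76.3 and 68.01 FPKM in sh-NC against 37.3, 38.8 and 38.1 in sh-CLGN (-0.95, SE 0.062, limma adjusted p = 1.1e-05). PC (ENSG00000173599, chromosome 11, 66848233 to 66958376), the pyruvate carboxylase that feeds both gluconeogenesis and the citric acid cycle, was 79.9, 80.6 and 73.55 FPKM in sh-NC against 92.7, 90.5 and 94.6 in sh-CLGN (0.25, SE 0.051, adjusted p = 0.00338). These neighbouring steps thus had like levels in sh-NC and moved apart in sh-CLGN. SLC37A4, the glucose 6-phosphate carrier of the endoplasmic reticulum, fell from 7.63 ± 0.189 to 6 ± 0.437 FPKM (-0.30, adjusted p = 0.00343), a call lost after GC correction (-0.06) and with read totals (-0.13). Exons of SLC37A4 share 8.79% of their bases with TRAPPC4 on the opposite strand. G6PC3, the widely expressed glucose 6-phosphatase, was 13.5, 12.8 and 10.7 FPKM in sh-NC against 10.9, 10.9 and 10.9 in sh-CLGN and did not pass (adjusted p = 0.123). FBP1, fructose 1,6-bisphosphatase, was at 1.74 ± 0.263 and 1.79 ± 0.275 FPKM (0.02, SE 0.107, adjusted p = 0.852), and its exons share 16.3% of their bases with the antisense gene PCAT7, which had more reads.

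Below the filter, reads rather than fold changes describe the genes. PFKP, the platelet phosphofructokinase, had 3, 4 and 3 reads in sh-NC against 38, 43 and 51 in sh-CLGN. SLC2A3, the high-affinity carrier GLUT3, had 6, 9 and 13 reads in sh-NC against 35, 37 and 44 in sh-CLGN, and its close relative SLC2A14 could share reads with it. HK1 had 4, 4 and 6 reads against 10, 9 and 13. LDHB, the heart lactate dehydrogenase, had 2, 1 and 0 reads against 4, 5 and 8, and 93.5% of its coding bases lie in exons of another same-strand entry, AC010197.2, so its level is uncertain. G6PC, the liver glucose 6-phosphatase, had 7, 1 and 1 reads in sh-NC against 1, 0 and 2 in sh-CLGN, and no difference was detectable at this depth. PCK1, the cytosolic carboxykinase, had 68, 90 and 90 reads against 73, 78 and 74. With the filter dropped, PFKP (0.57, limma adjusted p = 0.00172) and SLC2A3 (0.33, adjusted p = 0.00819) passed as higher and the other 4 genes did not pass. Of 9013 genes under the filter that had 10 reads or more, 78.7% took a larger part of the reads in sh-CLGN than in sh-NC, so a rise among low genes was common in these libraries.

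Shares within enzyme families give each library its own reference, and a factor common to all genes of a library leaves them as they are, though quantile normalization and GC correction do not. Of the 14 genes other than the most abundant of their 11 families, 10 held a larger share in every sh-CLGN library than in every sh-NC library, 0 a smaller one and 4 overlapped. Of the 10, SLC2A3, HK1, PFKP, LDHB and PCK1 lay under the filter, and ENO2 reached it only in sh-CLGN libraries. PFKM, ALDOA and PCK1 gained share although their own mean FPKM was lower in sh-CLGN. No tally over other gene families was made as a background. Among genes under the filter with 10 reads or more, 78.7% took a larger part of the reads in sh-CLGN. PFKL held 71.1% ± 1.09 of phosphofructokinase FPKM in sh-NC against 64.0% ± 0.196 in sh-CLGN, PFKM 28.8% ± 1.10 and 34.0% ± 0.106, and PFKP 0.107% ± 0.0146 and 2.01% ± 0.290 (SD, n = 3). SLC2A2 made up 9.94% ± 1.48 of the FPKM of GLUT1 to GLUT3 in sh-NC against 17.8% ± 1.03 in sh-CLGN. PFKFB2 held 5.43% ± 0.660 of the 3 PFKFB genes in sh-NC against 10.1% ± 0.508 in sh-CLGN, and ENO2 held 0.0823% ± 0.0201 and 0.403% ± 0.0748 of enolase. In each of these families the libraries of the groups did not overlap in the shares named. SLC16A1 with SLC16A3 and PKM with PKLR fell side by side and kept their shares within the replicate spread. SLC16A1 was at 57.0% ± 3.06 and 55.4% ± 2.09 of the MCT1 and MCT4 sum, and PKM at 99.3% ± 0.0952 and 99.3% ± 0.133 of pyruvate kinase. ALDOA and ALDOC also both fell, but the ALDOA share went from 7.09% ± 1.02 to 9.34% ± 1.40 with the groups apart. These shares are descriptions with no test.

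**Figure D3:**
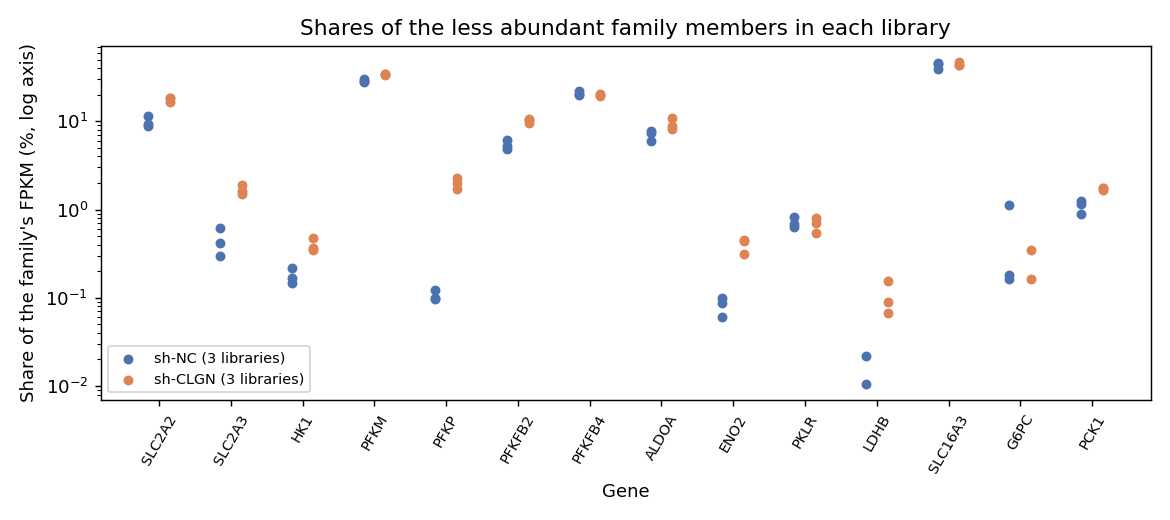
Share of the FPKM of its family (%, log axis) held by every gene other than the most abundant one of its family, 14 genes of 11 families, with 1 point per library (3 sh-NC, 3 sh-CLGN). PFKP went from near 0.107% to 2.01%, while PFKFB4, PKLR, SLC16A3 and G6PC overlap between groups, and 1 sh-NC library of LDHB and 1 sh-CLGN library of G6PC at 0 are not drawn.

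Connected pathways were read from gene lists, beside 39% lower and 26.7% higher over all genes tested. Of 8 tested genes of the pentose phosphate pathway, which draws glucose 6-phosphate off to make NADPH and ribose, 7 were lower, 0 were higher and 1 did not pass, with a median log2 fold change of -0.58. PGD, its decarboxylating dehydrogenase, fell from 155 ± 4.27 to 88.1 ± 2.31 FPKM (-0.81, limma adjusted p = 5.8e-06), and TKT, transketolase, from 19.2 ± 1.31 to 9.49 ± 0.272 FPKM (-0.94, adjusted p = 1.04e-05). For entry of fructose, galactose and mannose, 8 of 12 tested genes were lower and 1 was higher (median -0.38), with KHK, the fructose kinase of the liver, down from 4.76 ± 0.474 to 1.76 ± 0.211 FPKM (-1.06). Glycogen metabolism had 9 of 19 lower and 6 higher (median -0.09), shares near those of all tested genes. PPP1R3E, among the 6, reached the filter only in sh-CLGN libraries and had to differ. PGM1, which links glucose 1-phosphate to glucose 6-phosphate, fell by 1.16 on the log2 scale. Other glycolysis and gluconeogenesis genes had 3 of 9 lower and 4 higher (median 0.08), with GOT1, an aspartate aminotransferase, down from 50.2 ± 1.34 to 20.1 ± 0.808 FPKM (-1.28). Other carriers had 3 of 10 lower and 5 higher (median 0.15), and SLC2A14 rose from 3.32 ± 0.255 to 8.88 ± 0.953 FPKM (1.19). SLC2A4, among the 5, reached the filter only in sh-CLGN libraries and had to differ.

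Among 18 tested regulators of sugar metabolism genes, 7 were lower and 6 higher, near the 39% and 26.7% of all genes tested, with a median of -0.04. Among the 6, PDK4 and PRKAA2 reached the filter only in sh-CLGN libraries and had to differ. ARRDC4, among the 7, reached it only in sh-NC libraries and had to differ too. TXNIP, an inhibitor of glucose uptake that is itself induced by glucose, fell from 87.3 ± 0.963 to 32.8 ± 0.726 FPKM (-1.38, SE 0.042, limma adjusted p = 7.36e-07). MLXIP, a glucose-sensing transcription factor that acts with MLX, fell from 5.40 ± 0.487 to 2.17 ± 0.114 FPKM (-1.01, adjusted p = 2.05e-05). Of the factors that bind the letters shown above, named after their values were seen, HIF1A did not pass (0.03, SE 0.069, adjusted p = 0.678) and MYC was lower (-0.70, adjusted p = 4.45e-05). MLXIPL (0.61, adjusted p = 0.00126) and MLX (0.26, adjusted p = 0.00703), the partner of MLXIP, were higher. For all of these factors only RNA was measured, not protein or activity.

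Base composition and library scaling moved with these values. Over 13068 tested genes, log2 fold change and transcript GC content had a Spearman correlation of -0.33 across genes, which are not independent replicates. The median log2 fold change was 0.28 in the tenth of genes poorest in GC and -0.29 in the tenth richest in it. The sugar metabolism genes had a median GC content of 56.2%, beside 48.9% for all tested genes, and 25 of the 30 lay above the latter. After the GC trend was removed per library, their median log2 fold change was -0.22 in place of -0.43. The median of all genes moved as well, from -0.08 to -0.004. The 5 genes below the median GC content of all tested genes were LDHA, SLC16A1 and PGK1, which fell, and SLC2A2 and PFKFB2, which rose. Their GC contents were 44.7%, 44.9%, 43.9%, 39.5% and 45.2%, and after correction their log2 fold changes were -0.96, -0.94, -0.75, 0.43 and 0.34. The part of GC content in the results was not tested further. Scaling by read totals raised the median of all genes by 0.16 and TPM by 0.11, and the median of the 30 genes was then -0.27 and -0.42. TPM values are larger than FPKM values, so the added 1 shrank changes less with TPM. This was not separated from the scaling itself. With read totals the log2 fold change of GAPDH was -0.84 and that of GPI -0.81.

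**Figure D4:**
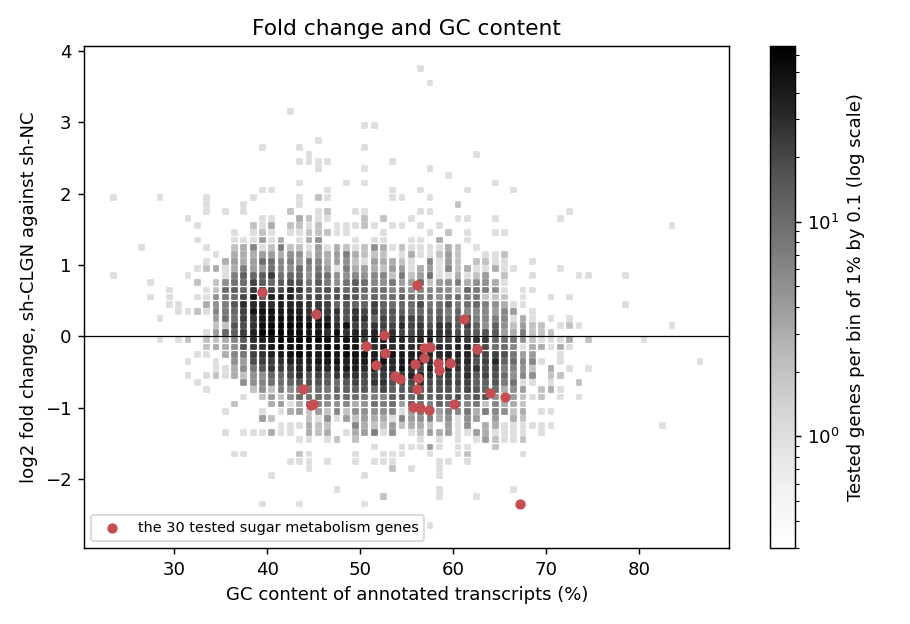
Log2 fold change of sh-CLGN against sh-NC against the GC content (%) of annotated transcripts, with tested genes in grey bins shaded by their number on a log scale and the 30 sugar metabolism genes in red. The cloud slopes downward, 25 red points lie above the median GC content of 48.9%, and of the 5 below it LDHA, SLC16A1 and PGK1 lie low in the cloud and SLC2A2 and PFKFB2 above 0.

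Of the 25 genes that passed, 20 kept their direction and their adjusted p of at most 0.05 under all 15 alternatives, 6 of which left out a library. The other 5 were SLC2A1, PFKFB2, ALDOA, PKLR and SLC37A4. Among the 20 were GAPDH, LDHA, PCK2, SLC16A1 and SLC2A4RG on the lower side and SLC2A2 and PC on the higher side. ENO2 was counted among them too, but it had to differ to be tested.

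**Figure D5:**
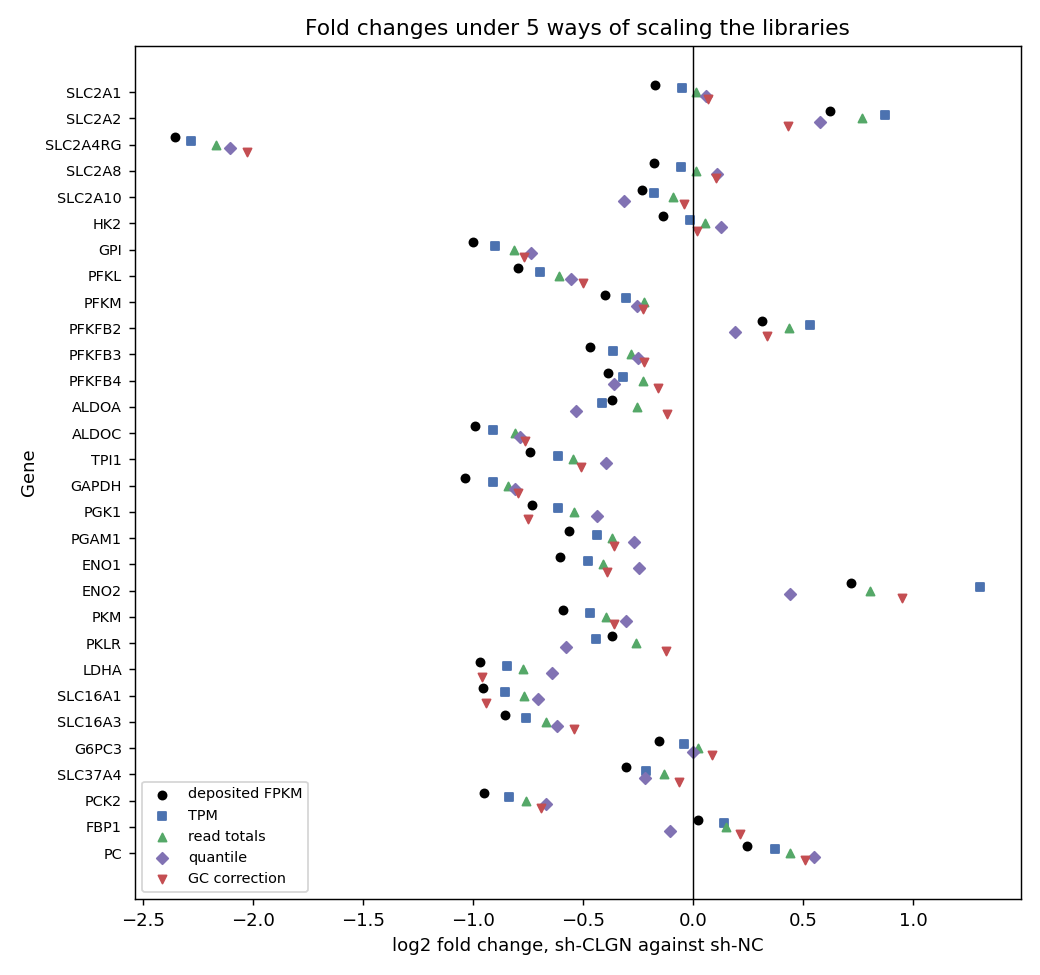
Log2 fold change of the 30 tested genes with the deposited FPKM and with 4 other scalings (TPM, read totals, quantile normalization and GC correction). Symbols of 1 row belong to 1 gene. SLC2A1, SLC2A8, HK2, G6PC3 and FBP1 cross 0, while LDHA stays between -0.97 and -0.64 and PC between 0.25 and 0.55.

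Near-identical copies could divert reads. The table held 105 pseudogenes of 12 of the genes, 50 of them with reads. GAPDH had 62 pseudogenes, whose reads came to 0.182% of its own in sh-NC against 0.351% in sh-CLGN, and for TPI1 these were 1.01% and 1.14%. Reads discarded before counting could not be seen, and the part of such copies in the changes was not tested.

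The seed of the hairpin guide strand, taken as the strand complementary to the stated CLGN target, was compared with 3′ UTRs, since a hairpin can act on other transcripts through such matches. On the transcript strand, TACCACA is the match to the seed, and ATACCAC is a match shifted by 1 base along the guide. Either occurred in 14.8% of 10879 tested genes with an annotated 3′ UTR, and TACCACA in 10.8%. Of the 30 sugar metabolism genes, 2 held such letters, and SLC2A4RG did not. ALDOC held both, while SLC16A1 held only the shifted ATACCAC. The stretches of ALDOC and SLC16A1 are shown with the matched letters in capitals, on GRCh38. The match begins at base 12 of the ALDOC 3′ UTR, and both genes were among those that fell by close to 1 on the log2 scale, as were GPI, LDHA and PCK2, whose annotated 3′ UTRs lacked these letters. What part these letters have in the results was not tested.
ALDOC, chr17:28573497-28573524, minus strand: tatccactccATACCACAgcccttggcc
SLC16A1, chr1:112912426-112912452, minus strand: tgcatttaaaATACCACtgtaattgac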

How the data were processed

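Per the labels, libraries were made from total RNA with a NEBNext Ultra kit. The data are described as mRNA sequencing and the method of selecting it was not given in the sources used here. The submitters' processing notes name HISAT2 2.0.5, featureCounts and GRCh38. The authors deposited FPKM values per gene and library, and reads were recovered as FPKM times gene length, with 100% of values within 0.01 of a whole read. All 58735 positions and exon lengths equalled GENCODE 29.

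Groups and replicate numbers came from the labels. Genes that reached 1 FPKM in 3 or more libraries were compared with limma 3.58.1 in R 4.3.3 (eBayes with trend) on log2(FPKM + 1), over all 6 libraries without covariates, two-sided, with Benjamini-Hochberg adjustment over 13074 genes. The named genes were all tested members in pathway order, the untested ones by their reads, CLGN, and from each other list the genes past both thresholds or, where none was, the 2 with the smallest adjusted p. The members and lists were chosen with earlier results of these data known. Alternatives were median-ratio, TPM, read-total and quantile scaling, a pseudocount of 0.1, no filter, voom on recovered reads, GC correction (lowess span 0.3), a replicate block, and leaving out each library. On simulated data with 200 of 13074 genes changed by 1.5 on the log2 scale, 194 were recovered and 5.83% of calls were false. The simulation changed far fewer genes than the 8598 called in the data. It also used the same added spread for every gene and no GC trend. It therefore does not give the share of false calls in the data or the recovery of smaller changes. Python 3.11.15 with numpy 2.4.6, pandas 2.3.3 and matplotlib 3.10.9 was used for the remaining steps. Transcript GC content and 3′ UTRs came from GENCODE 29, and promoters from RefSeq. No molecular identifiers are named in the labels, so reads may include copies of 1 molecule.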

Additional observations from a re-analysis of the deposited data

Results flagged for a closer look

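A signal above the sh-NC libraries was present in 4 sugar metabolism genes that lay outside the test because they were below the filter. PFKP had a mean of 0.553 FPKM in sh-CLGN against 0.0471 in sh-NC, and SLC2A3 had 0.381 against 0.102. HK1 had 0.103 FPKM against 0.0502, and LDHB 0.116 against 0.0237, from at most 13 reads in any library of HK1 and at most 8 of LDHB. The 4 genes were picked because their 3 sh-CLGN libraries lay above the 3 sh-NC libraries, so this separation is not a result. With the filter dropped, HK1 (limma adjusted p = 0.148) and LDHB (0.0721) did not pass.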

How the results depend on the processing

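The count of sugar metabolism genes at an adjusted p of at most 0.05 (25) ranged from 21 with GC correction to 28 with voom, and from 23 to 27 when a library was left out. Past both thresholds there were 3, and 1 with read totals, quantile normalization or GC correction, 5 with a pseudocount of 0.1 or voom, and 2 to 4 when a library was left out. Over all genes this count was 821, and 1426 with TPM, 1606 with a pseudocount of 0.1, 1722 with voom and 784 to 902 with a library left out. Changes of sign occurred with read totals, quantile normalization and GC correction in SLC2A1 (0.015, 0.060 and 0.068), SLC2A8 (0.014, 0.11 and 0.10), HK2 (0.054, 0.13 and 0.021) and G6PC3 (0.024, 0.0015 and 0.087), and FBP1 was -0.10 under quantile normalization and -0.055 to 0.10 with a library left out. Read totals differ from the deposited FPKM only in the library size used, as given above. The cause of the other changes of sign was not tested. SLC2A1 lost its call without sh-NC library 1 or 2 or sh-CLGN library 1 or 2 (adjusted p up to 0.0986). SLC2A8 (adjusted p = 0.00129) and G6PC3 (0.00350) passed without sh-NC library 3, SLC2A10 (0.0366) without sh-NC library 1 and HK2 (0.0448) without sh-CLGN library 3, all in limma. CLGN stayed between -1.54 and -1.12 under the alternatives. Same-numbered libraries did not deviate together (correlations of -0.02, -0.05 and -0.15). With 3 libraries per group this check cannot exclude that the numbers pair them. With the replicate block 24 genes passed and 821 of all genes passed both thresholds, CLGN was unchanged at -1.31, and SLC2A1 lost its call (adjusted p = 0.0746).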
